A study of Mus musculus with 18 samples.

Results

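The subunits of Polycomb repressive complex 2 (PRC2) were followed at the RNA level across 4 comparisons of mouse forebrain. The material was tissue at postnatal day 0 (P0) or cultures grown from it. The members were 10 genes chosen by name, the catalytic subunits *Ezh1* and *Ezh2*, the core subunits *Eed*, *Suz12*, *Rbbp4* and *Rbbp7*, and the accessory subunits *Mtf2*, *Phf19*, *Jarid2* and *Aebp2*. They were 10 of 56567 gene names in the 4 tables, and each was read from the entry with the highest mean where a name had several. All 10 were listed in every table and all 10 passed the filter on low values (a mean of at least 0.5 FPKM) in every comparison. FPKM (fragments per kilobase, scaled to the library) corrects for length, so levels of different genes can be set side by side within a table.

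The study asked how KDM2B, a CpG-island-binding member of a variant PRC1 complex, shapes hippocampal development. Bulk RNA-seq was available for P0 hippocampi of 3 control and 3 *Kdm2b* cKO samples, for neurospheres grown from P0 hippocampal progenitors with 2 and 2 samples, for P0 cortices with 2 and 2, and for P0 hippocampi of 2 control and 2 *Rnf2* cKO samples. By the study's methods, the neurospheres were cultured for 3 generations in medium with FGF2 and EGF before RNA-seq. In the *Kdm2b* cKO (labelled Kdm2bEmx1-delta-CxxC), Emx1-Cre removed the exon that encodes the CxxC zinc finger, with which KDM2B binds unmethylated CpG. *Rnf2* encodes Ring1B, the E3 ligase of PRC1, and its cKO was made with Emx1-Cre as well, which acts in the dorsal telencephalic lineage, so cells of other origin in these tissues keep both alleles. Controls carried the floxed gene as fl/+ or fl/fl, and the labels do not tell which, so both kinds form 1 control group per table. The strain is not given in the sources used here, nor is it stated that samples came from separate animals, so p values measure the spread between these samples.

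PRC2 methylates lysine residues of histone H3 to give H3K27me3, a mark of silenced developmental genes, through EZH2 or its paralog EZH1, and needs EED and SUZ12 to be active. EZH2 is the form of dividing cells such as neural progenitors, while EZH1 is relatively more prominent in cells that have stopped dividing. Accessory subunits split the complex into PRC2.1, which carries a Polycomb-like protein such as MTF2 or PHF19, and PRC2.2, which carries JARID2 and AEBP2 and can bind the H2AK119ub mark that PRC1 deposits.

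The targeted genes were checked first. Whole-gene *Kdm2b* was 29.4 ± 2.15 FPKM in control and 27.2 ± 0.992 in cKO hippocampi (SD, n = 3 and 3), 22.1 and 23.1 in neurospheres and 16.3 and 14.8 in cortices (means of 2 and 2), and none of these passed the test. A whole-gene value does not separate the removed exon, so it checks neither the deletion nor the label. *Rnf2* was 32.3 and 30.8 FPKM in the 2 control and 28.5 and 27.8 in the 2 *Rnf2* cKO hippocampi. Both cKO libraries lay below both controls, but the log2 fold change of −0.16 (SE 0.10) did not pass the test (adjusted p = 0.762, limma). The whole-gene value was thus not clearly lowered in the libraries labelled *Rnf2* cKO. As for *Kdm2b*, such a value does not separate a removed part, so it does not check the deletion. The study reports a large loss of H2AK119ub in P0 *Rnf2* cKO neocortex, not hippocampus. Summed FPKM over all entries ranged from 363633 to 383249 in *Kdm2b* hippocampi, 452580 to 855276 in neurospheres, 261406 to 279902 in cortices and 261615 to 271513 in *Rnf2* hippocampi. Neurosphere control library 1 stood apart, with 29.3% of its FPKM in entries that name no gene, and the members' results that rest on it are given with and without it. *Xist*, the X-inactivation RNA, was below 0.4 FPKM in 7 of 18 libraries and above 70 in the others, and the number of such libraries differed between control and cKO groups in 3 of the 4 tables. Hippocampal-field markers exceeded 40 FPKM in sum in each hippocampal library and stayed below 9 in each cortical one, as the tissue labels say.

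The order of the subunits in controls was similar in the 4 tables. The histone chaperones *Rbbp4* and *Rbbp7*, which also serve other chromatin complexes, were the 2 most abundant members everywhere, from 28.5 to 66.9 FPKM as group means. *Phf19* was the least abundant in every table (0.888 to 4.32 FPKM) and *Ezh1* ranked 9 of 10 in every table (4.27 to 6.87 FPKM). *Ezh2* ranked 3 in *Kdm2b* hippocampi, neurospheres and cortices and 5 in *Rnf2* hippocampi, where its controls overlapped those of *Mtf2*, its neighbour above. Most neighbours in the order did not overlap in controls. The exceptions were *Suz12* and *Mtf2*, and *Eed* and *Aebp2*, in *Kdm2b* hippocampi, *Eed* and *Mtf2* in neurospheres, and *Mtf2* and *Ezh2*, and *Aebp2* and *Eed*, in *Rnf2* hippocampi. *Mtf2*, the main Polycomb-like subunit here, reached 24.5 FPKM and rank 4 in cortical controls, above *Suz12*, and 13.5 FPKM and rank 5 in *Kdm2b* hippocampal ones. The tables were normalized separately, so no test was made between them.

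**Figure D1:**
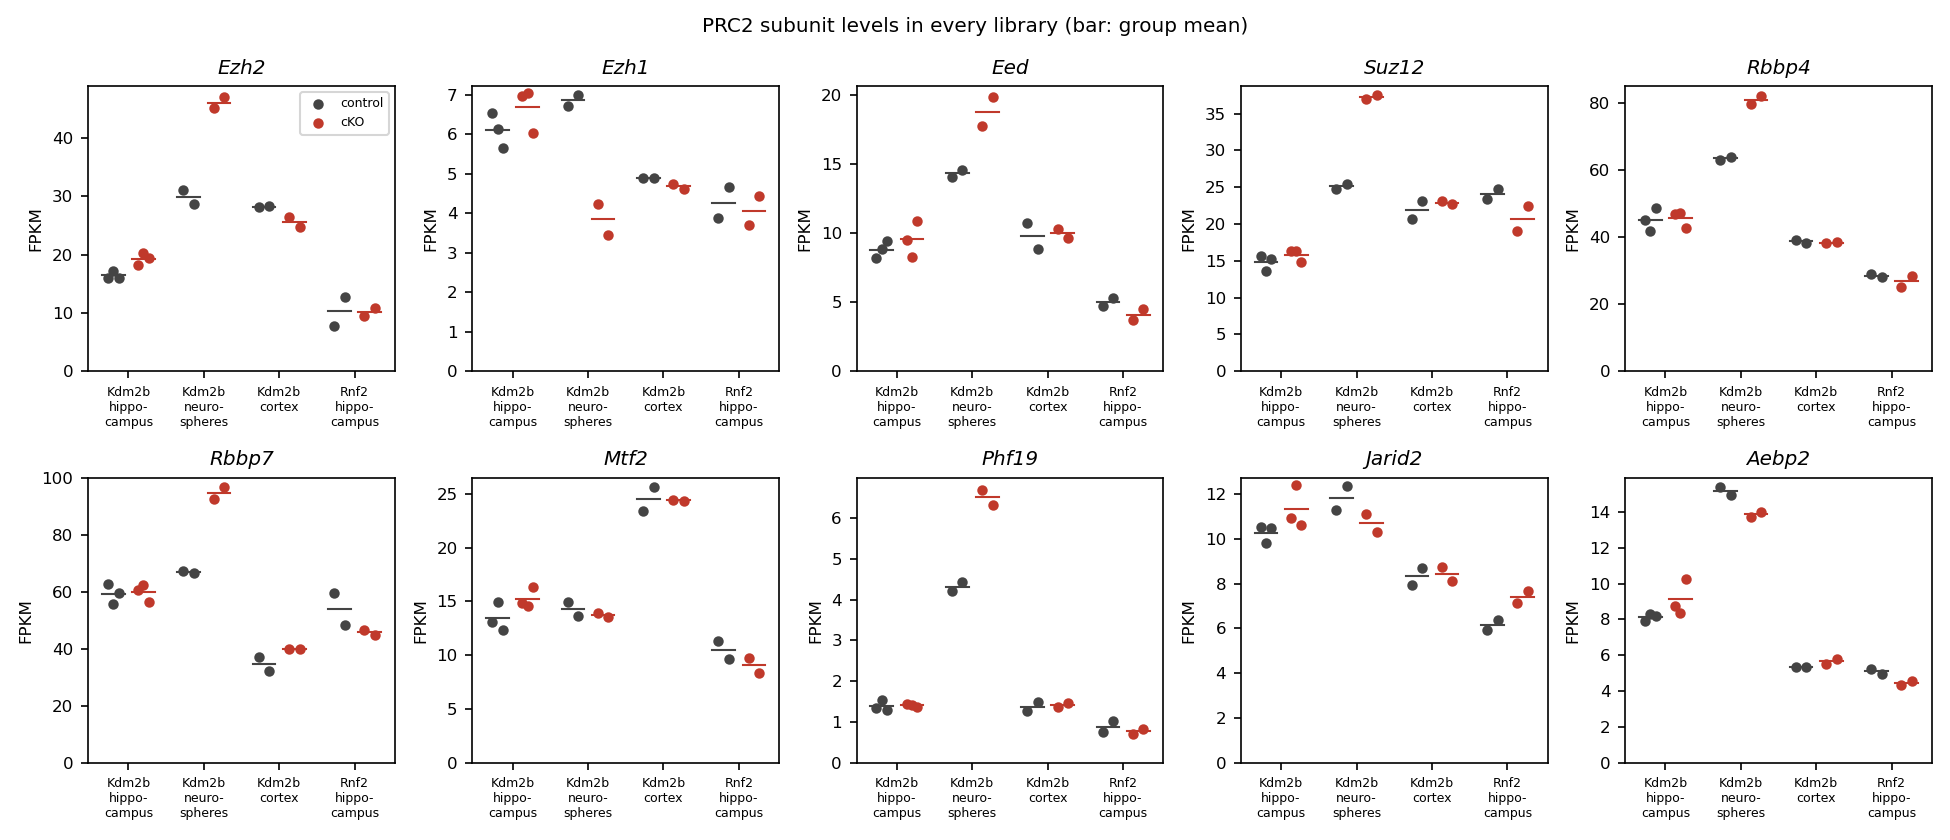
FPKM of each PRC2 subunit (1 panel each, linear axis from 0) in every library of the 4 comparisons, controls in dark grey and cKO in red, with a bar at the group mean. In neurospheres the cKO points of *Ezh2*, *Suz12*, *Rbbp4*, *Rbbp7*, *Eed* and *Phf19* lie above both controls and those of *Ezh1* below, whereas in the tissues most groups overlap or lie close.

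In *Kdm2b* cKO neurospheres, 4 subunits rose and 1 fell. *Ezh2*, *Suz12*, *Rbbp7* and *Phf19* were 1.42-fold to 1.54-fold higher than in control neurospheres, and *Ezh1* was at 0.561 of its control level. A gene is called here when its log2 fold change exceeds 0.4 in size with an unadjusted p under 0.05 (limma on log2(FPKM + 1)). The study used the same thresholds, but with DESeq2 on read counts, so these calls are not those of the study. Of all 12226 genes tested, 11.4% were called higher and 13.2% lower. By the adjusted p alone (Benjamini-Hochberg over all genes, under 0.05), 6 members were higher and 1 lower, beside 10.7% and 11.6% of all genes. The median log2 fold change of the 10 members was 0.36, against −0.01 over all genes.

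Both catalytic subunits changed, in opposite directions. *Ezh2* was 31.0 and 28.7 FPKM in the control and 45.2 and 47.0 in the cKO neurospheres. Both cKO libraries lay above both controls, a log2 fold change of 0.61 (SE 0.08, adjusted p = 0.00655). *Ezh1* was 6.73 and 6.996 FPKM in the controls and 4.24 and 3.46 in the cKO libraries. Both cKO libraries lay below both controls, a log2 fold change of −0.70 (SE 0.12, adjusted p = 0.0143). The *Ezh2* to *Ezh1* ratio, which does not depend on how a library was scaled, was 4.61 and 4.10 in the controls and 10.6 and 13.6 in the cKO libraries. The difference of 1.47 on the log2 scale had a two-sided exact permutation p = 0.333, the smallest that 2 against 2 libraries allow (adjusted p = 0.64 over 8 ratio tests).

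Among the core subunits, *Suz12*, which holds the complex together, was 24.8 and 25.5 FPKM in control and 36.9 and 37.6 in cKO neurospheres. The groups were far apart relative to their spread, with a log2 fold change of 0.55 (SE 0.08, adjusted p = 0.00699). *Rbbp7* was 67.3 and 66.6 FPKM in the controls and 92.7 and 96.9 in the cKO libraries (0.50, SE 0.08, adjusted p = 0.0105). *Rbbp7* is X-linked, and *Xist* was 175 and 173 FPKM in the controls and 0.361 and 140 in the cKO libraries. The part of *Xist* status in the level of *Rbbp7* was not tested. *Rbbp4* went from 63.0 and 63.7 to 79.7 and 82.1 FPKM (0.35, SE 0.08, adjusted p = 0.0294). *Eed*, whose product reads H3K27me3, went from 14.1 and 14.6 to 17.8 and 19.9 FPKM (0.37, SE 0.09, adjusted p = 0.0406). *Rbbp4* and *Eed* thus passed the adjusted p but stayed under the fold threshold.

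The accessory subunits did not move as a block in the neurospheres. Of the PRC2.1 subunits, *Phf19* rose from 4.20 and 4.43 to 6.70 and 6.33 FPKM (0.50, SE 0.11, adjusted p = 0.0247), while *Mtf2* was 14.9 and 13.6 FPKM in controls and 14.0 and 13.6 in cKO libraries, with overlapping groups (−0.05, 95% interval −0.27 to 0.17). Of the PRC2.2 subunits, *Jarid2* was 11.3 and 12.4 FPKM against 11.1 and 10.3 (−0.13, interval −0.37 to 0.11) and *Aebp2* 15.4 and 14.97 against 13.7 and 14.0 (−0.12, interval −0.32 to 0.08). The cKO libraries of both lay below the controls, and neither passed the test. The summed level of *Mtf2* and *Phf19* over that of *Jarid2* and *Aebp2* was 0.716 and 0.662 in controls and 0.832 and 0.818 in cKO libraries. This difference of 0.26 on the log2 scale again had the smallest exact permutation p of 0.333 (adjusted p = 0.64). In all, 9 of 10 members did not overlap between the groups, 6 with cKO above and 3 below, and 66.4% of all genes tested did not overlap either.

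Cell-type markers moved in the same cultures. All 15 genes of a list of proliferating-cell markers rose (median log2 fold change 1.12), and their summed level was 541 to 558 FPKM in controls and 1149 to 1207 in cKO libraries. Of these, *Pcna*, *Ccna2* and *Birc5* were read from entries that join them with neighbouring genes, so the gene behind those values is uncertain. All 5 astrocyte markers fell, from a sum of 169 to 198 FPKM to 21.6 to 22.8, and 4 of 6 oligodendrocyte-lineage markers fell, although that list's sum was 2378 to 2446 in controls and 2418 to 2481 in cKO libraries. Of 9 neuronal markers 6 were tested, of which 1 rose and 3 fell, with sums of 232 to 243 and 171 to 200 FPKM. Of 8 neural progenitor markers 2 rose and 2 fell (sums of 4169 to 4621 and 5551 to 7377 FPKM). No microglial, meningeal or red blood cell marker reached 0.5 FPKM on average. What part these shifts have in the change of the PRC2 subunits was not tested. In bulk RNA, more or fewer cells of a type cannot be told apart from more or less RNA per cell.

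The calls of the 5 members stood when each library was left out in turn, and *Eed* joined them in 1 case. Without control library 1, *Ezh2* was at 0.67, *Suz12* at 0.53, *Rbbp7* at 0.50, *Phf19* at 0.47 and *Ezh1* at −0.73, and the members' median was 0.34. The *Ezh2* to *Ezh1* ratio difference was then 1.55 and that of PRC2.1 to PRC2.2 was 0.32. The adjusted p was less stable, since no member passed it without control library 1 or without control library 2, nor when libraries were set to the same FPKM total over named genes, a scaling that moved the median of all genes by 0.11 on the log2 scale. That scaling kept the 4 calls higher and the 1 lower, with 1256 genes called higher and 830 lower in all in place of 1392 and 1619.

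**Figure D2:**
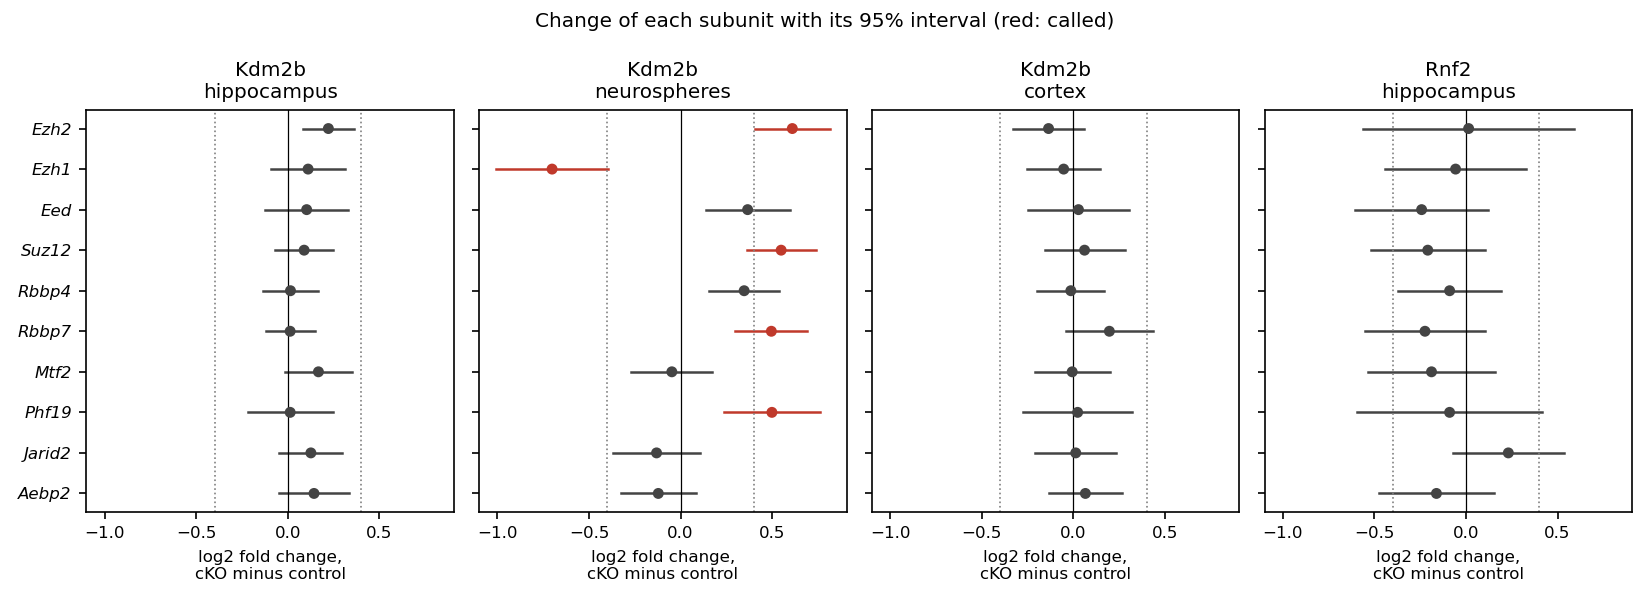
Log2 fold change (cKO minus control, on the log2(FPKM + 1) scale) of each subunit in the 4 comparisons, as points with 95% intervals, called members in red, a solid line at 0 and dotted lines at the fold threshold of 0.4. All 5 called members are in neurospheres, where *Ezh1* is at −0.70 and *Ezh2* at 0.61.

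The promoters of the members were read to give the sequence behind these genes. All 10 had an entry in the RefSeq promoter table (GRCm38.p6, 250 bases before and 50 after a start site), with 14 start sites in all. Most were rich in CpG, the dinucleotide that the CxxC zinc finger binds when it is unmethylated. At the first listed start site, 9 of the 10 genes held 17 to 41 CpG in 300 bases, where the median of 32851 promoters was 7. *Aebp2* had 4 at 2 of its 3 start sites and 21 at the other. E2F factors drive genes of DNA replication and the cell cycle, and their motif was searched on both strands as TTTCCCGC, TTTCGCGC, TTTGCCGC or TTTGGCGC. It was found at 3 of the 10 members, *Ezh2*, *Suz12* and *Phf19*. Of all promoters 2.26% held it, and of the 8701 with at least 20 CpG 5.15%. These are the only 3 members with a match, and their sequences are shown for that reason. All 3 were called higher in neurospheres. *Rbbp7*, also called higher, held no match in this window. Neither did *Eed* and *Rbbp4*, higher there by the adjusted p alone, nor *Ezh1*, called lower. A part of E2F factors in these levels was not tested. The sequences run 5′ to 3′ along the gene's strand, with the motif in capitals, and a match is a description and not a site known to be bound. For *Ezh2* (chr6:47595011-47595040, minus strand) 30 bases from 10 before the start site are given, and for *Suz12* (chr11:79992856-79993105, plus strand) and *Phf19* (chr2:34913977-34914226, minus strand) the 250 bases before the start site.
Ezh2: ttgggttgctgcgTTTGGCGCtcggtccgg
Suz12: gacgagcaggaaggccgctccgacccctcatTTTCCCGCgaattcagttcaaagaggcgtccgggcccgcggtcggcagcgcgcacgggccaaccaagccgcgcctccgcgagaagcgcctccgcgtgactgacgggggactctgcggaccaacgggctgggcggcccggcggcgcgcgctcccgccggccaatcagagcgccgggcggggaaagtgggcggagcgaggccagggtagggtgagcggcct
Phf19: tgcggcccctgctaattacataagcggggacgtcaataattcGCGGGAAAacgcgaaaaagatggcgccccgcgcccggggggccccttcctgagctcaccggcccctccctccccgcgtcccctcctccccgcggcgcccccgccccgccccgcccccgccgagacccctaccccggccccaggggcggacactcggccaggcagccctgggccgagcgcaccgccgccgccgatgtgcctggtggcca

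In *Kdm2b* cKO hippocampi, no subunit passed the call, and *Ezh2* came closest. *Ezh2* was 16.1, 17.2 and 15.97 FPKM in the controls and 18.2, 20.2 and 19.5 in the cKO hippocampi. Every cKO library lay above every control, yet the log2 fold change of 0.22 (SE 0.06, adjusted p = 0.0613, 95% interval 0.08 to 0.36) was under the fold threshold. By limma 0 members were called in either direction, beside 3.89% of 13445 genes called higher and 2.25% lower, and 0 passed the adjusted p, beside 4.28% and 3.99%. At an unadjusted p under 0.05 there was 1 member, *Ezh2*. All 10 log2 fold changes were above 0 (0.01 to 0.22, median 0.11, against a median of 0.01 over all genes, of which 52.2% were above 0). *Phf19*, *Rbbp4* and *Rbbp7* were at 0.01 each and turned negative when single libraries were left out.

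The PRC2.2 subunits *Jarid2* and *Aebp2* also had every cKO library above every control. *Jarid2* was 10.5, 9.83 and 10.5 FPKM in controls and 10.96, 12.4 and 10.6 in cKO hippocampi (0.13, SE 0.08, adjusted p = 0.37). *Aebp2* was 7.91, 8.30 and 8.21 FPKM in controls and 8.77, 8.35 and 10.2 in cKO hippocampi (0.14, SE 0.08, adjusted p = 0.361). In both the lowest cKO library was within 0.2 FPKM of the highest control. With *Ezh2* these were 3 of 10 members without overlap, close to the 29.2% of all genes. The other 7 members overlapped, among them *Ezh1* with 6.55, 6.15 and 5.65 FPKM against 6.98, 7.05 and 6.03 (0.11, interval −0.09 to 0.31). The *Ezh2* to *Ezh1* ratio was 2.45 to 2.83 in controls and 2.61 to 3.24 in cKO hippocampi (exact permutation p = 0.4 with 3 against 3 libraries, smallest possible 0.1, adjusted p = 0.64).

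Progenitor and neuron markers moved beside these values in the *Kdm2b* hippocampi. Of 8 neural progenitor markers 4 rose, among them *Pax6* (5.48 to 10.6 FPKM) and *Nes* (15.1 to 22.3), and of 3 intermediate progenitor markers 2 rose, *Eomes* (14.8 to 34.2) and *Neurog2* (9.54 to 27.2). The summed level of the 3 was 110 to 124 FPKM in controls and 168 to 179 in cKO libraries. The sum of 8 progenitor markers overlapped (1095 to 1176 and 1125 to 1243). Of 9 neuronal markers 1 fell, *Slc17a7*, with sums of 2436 to 2500 and 1934 to 2216 FPKM. None of the 15 proliferating-cell markers was called in either direction, with sums of 230 to 247 and 227 to 273. Of these, *Plk1* (45.1 FPKM in controls, 45.4 in cKO hippocampi) and *Ccna2* were read from entries joined with *Dctn5* and *Bbs7*. The gene behind these values is thus uncertain. Of the other lists 2 of 5 microglial markers rose (sums of 26.6 to 32.2 and 34.04 to 44.4 FPKM), as did 2 of 3 choroid plexus markers tested (4.72 to 15.6 and 6.59 to 58.9), while 2 of 5 astrocyte markers and 1 of 4 neocortical ones fell. Their part in the level of *Ezh2* was not tested.

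In *Kdm2b* cKO cortices, no subunit was called either. *Ezh2* was 28.1 and 28.4 FPKM in the controls and 26.5 and 24.8 in the cKO cortices. Both cKO libraries lay below both controls, with a log2 fold change of −0.14 (SE 0.08, adjusted p = 0.546, interval −0.33 to 0.06). *Rbbp7* had the largest value of the members, 37.1 and 32.3 FPKM in controls and 39.8 and 39.9 in cKO cortices (0.20, SE 0.09, adjusted p = 0.477). *Xist* was 0.018 FPKM in control library 1 and 132 to 189 in the other 3. The remaining 8 members lay between −0.05 and 0.07, and the median was 0.02. By limma 0 members were called, beside 4.73% of 15691 genes called higher and 2.28% lower, 0 passed the adjusted p, beside 0.37% and 0.0574%, and 0 had an unadjusted p under 0.05, in limma or in limma-voom on reads recovered from the values. Without overlap were 4 of 10 members, *Ezh2*, *Ezh1*, *Rbbp7* and *Aebp2*, where 44.8% of all genes did not overlap. Each member rested on 136 to 7511 reads in a cortical library. All 4 meningeal markers rose in these cKO cortices, from a sum of 0.812 to 1.37 FPKM to 15.1 to 22.99, and other lists rose in part, with 2 of 4 endothelial markers (sums of 32.4 to 32.7 FPKM in controls and 52.4 in both cKO libraries), 2 of 3 red blood cell markers (370 to 414 and 554 to 626) and 2 of 5 microglial markers (9.03 to 9.66 and 12.1 to 17.9). Of 2 astrocyte markers tested 1 rose, as did 1 of 8 progenitor and 1 of 6 oligodendrocyte-lineage markers, and 1 of 3 hippocampal-field markers fell. None of the 15 proliferating-cell markers was called. Their part in the values of the members was not tested.

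In *Rnf2* cKO hippocampi, 8 of 10 log2 fold changes were below 0, with a median of −0.13, and again no subunit was called. *Jarid2*, the JmjC-family subunit of PRC2.2, was the highest, with 5.91 and 6.39 FPKM in controls and 7.12 and 7.67 in cKO hippocampi. Both cKO libraries lay above both controls (0.23, SE 0.12, adjusted p = 0.737). Core subunits lay on the other side, with *Eed* at 4.73 and 5.34 against 3.73 and 4.49 FPKM (−0.24, SE 0.15, adjusted p = 0.762), *Suz12* at 23.4 and 24.7 against 19.01 and 22.5 (−0.21, SE 0.12, adjusted p = 0.762) and *Rbbp7* at 59.5 and 48.5 against 46.7 and 45.0 (−0.22, SE 0.13, adjusted p = 0.762). *Aebp2*, at 5.25 and 4.96 against 4.33 and 4.59 FPKM, was the fourth with cKO below (−0.16, SE 0.13, adjusted p = 0.79). The 5 members without overlap compare with 38.3% of all genes. By limma 0 members were called, beside 2.86% of 15764 genes called higher and 1.85% lower. No member had an unadjusted p under 0.05, in limma or in limma-voom, and of all genes 1121 had an unadjusted p under 0.05 in limma and 0 passed the adjusted p, against 4 that passed it in limma-voom.

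*Ezh2* varied widely between the *Rnf2* control hippocampi. Its controls were 7.77 and 12.8 FPKM and enclosed both cKO libraries, 9.42 and 10.8. The log2 fold change of 0.01 (interval −0.56 to 0.59) became −0.31 without control library 1 and 0.34 without control library 2. *Phf19* rested on 57 to 80 reads there, for which the counting error alone is 13.2% at the lowest, and read 0.756 and 1.02 FPKM against 0.709 and 0.834. Of the marker lists, 3 of 4 meningeal markers fell (sums of 25.7 to 25.9 and 11.2 to 17.96 FPKM), 1 of 8 progenitor and 1 of 6 oligodendrocyte-lineage markers rose, and none of the 15 proliferating-cell markers was called. Their part was not tested.

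**Figure D3:**
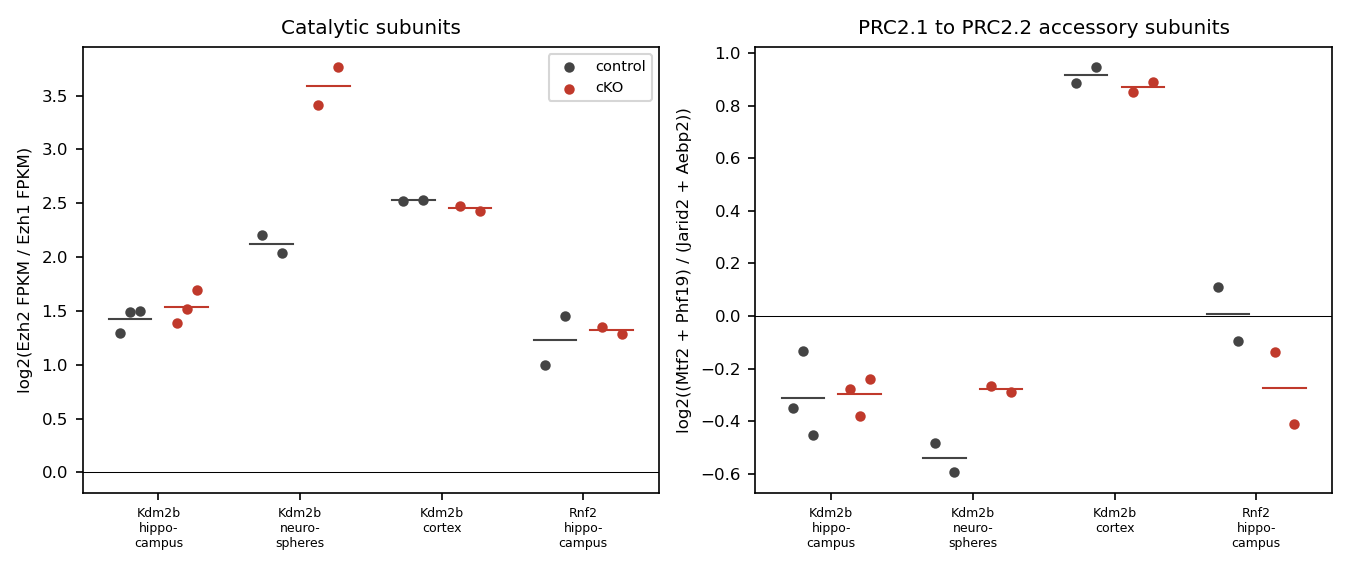
Log2 ratio per library of *Ezh2* to *Ezh1* FPKM (left) and of the summed PRC2.1 subunits *Mtf2* and *Phf19* to the summed PRC2.2 subunits *Jarid2* and *Aebp2* (right), controls in dark grey, cKO in red, with a bar at the group mean. The *Ezh2* to *Ezh1* ratio separates control from cKO most in neurospheres (means of 2.12 and 3.59), and cortical libraries have the highest PRC2.1 to PRC2.2 ratio in both groups.

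The balance of accessory subunits was compared with genotype in the tissues as well. The PRC2.1 to PRC2.2 ratio was 0.805 in control and 0.813 in cKO *Kdm2b* hippocampi, 1.89 and 1.83 in cortices, and 1.01 and 0.828 in *Rnf2* hippocampi (geometric means). The difference on the log2 scale was 0.015 and −0.044 in *Kdm2b* hippocampi and cortices, whose groups overlapped, and −0.28 in *Rnf2* hippocampi, where both cKO libraries lay below both controls. None of the 8 ratio tests passed, with adjusted p of 0.64 to 1, and 2 or 3 libraries a group cannot reach a p under 0.05. These ratios are set side by side across tables without a test, since each table was made separately.

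Whether the *Kdm2b* effect itself differed between materials was tested in 1 limma fit of 8 group means over 9622 genes. Neurospheres and hippocampi differed at an adjusted p under 0.05 for 5 of 10 members, where 25% of all genes did. Without neurosphere control library 1 these were 3 (*Ezh1*, *Rbbp7* and *Suz12*), and 3 with the same FPKM total as well. *Ezh1* had the largest difference, −0.81 (neurosphere minus hippocampal effect, SE 0.15, adjusted p = 9.05e-04). *Rbbp7* (0.48), *Suz12* (0.46), *Phf19* (0.49) and *Rbbp4* (0.33) differed in the other direction, with adjusted p of 0.00858 to 0.0291. *Rbbp4* no longer passed without hippocampal control library 1 or 3 or cKO library 3 (limma, adjusted p = 0.0539 to 0.0738). The neurosphere minus hippocampal difference of *Ezh2* was 0.39 (SE 0.18, adjusted p = 0.13) and did not pass. Between cortices and hippocampi 0 of 10 members differed (limma, 0.239% of all genes), with 0 at an unadjusted p under 0.05, and *Ezh2* had the largest difference, −0.36 (SE 0.18, adjusted p = 0.608). Between the *Rnf2* and *Kdm2b* effects in hippocampi 0 of 10 differed at an adjusted p under 0.05 (0.686% of all genes). At an unadjusted p under 0.05 there were 4, *Mtf2* at −0.36, *Eed* at −0.35, *Aebp2* at −0.30 and *Suz12* at −0.30.

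Of the wider PRC2 pathway, 1 gene stood out in every table. *Epop* encodes an accessory subunit of PRC2.1 that is not among the 10 members. In *Kdm2b* hippocampi and neurospheres it was listed under its older symbol, *E130012A19Rik*. Of its 2 entries in hippocampi the one with the highest mean was used. It was 5.30, 4.76 and 4.27 FPKM in control and 17.2, 14.6 and 13.4 in *Kdm2b* cKO hippocampi (1.47, SE 0.10, adjusted p = 1.72e-04). It was 6.01 and 6.43 against 17.1 and 22.8 FPKM in neurospheres (1.52, SE 0.15, adjusted p = 0.00247) and 5.94 and 6.26 against 22.6 and 18.5 FPKM in cortices (1.59, SE 0.11, adjusted p = 0.024). In *Rnf2* hippocampi it was 8.38 and 7.14 against 13.3 and 16.6 FPKM (0.86, SE 0.15, adjusted p = 0.501). Every cKO library lay above every control of its table, and the gene was called higher in all 4. By the adjusted p it was not called in *Rnf2* hippocampi, nor with limma-voom there (adjusted p = 0.265). The *Rnf2* minus *Kdm2b* difference of the effects in hippocampi was −0.61 (limma, SE 0.19, unadjusted p = 0.00564) and did not pass the adjusted p (0.125). *Epop* rose 3.15-fold to 3.37-fold in *Kdm2b* cKO material in which *Mtf2*, also of PRC2.1, did not pass the test. The Polycomb-like subunits *Phf19* (0.50) and *Phf1* (0.44) were called higher in neurospheres, but not in *Kdm2b* hippocampi or cortices.

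**Figure D4:**
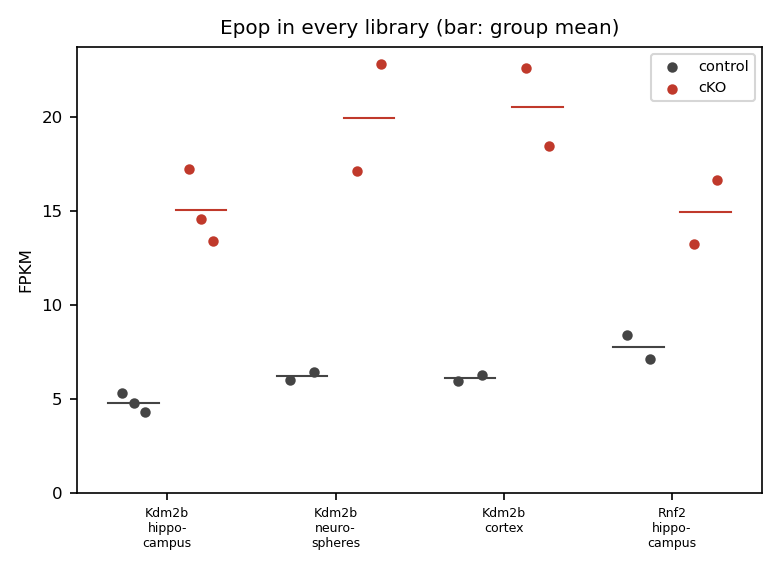
FPKM of *Epop* in every library of the 4 comparisons (linear axis from 0), controls in dark grey, cKO in red, with a bar at the group mean. All controls lie between 4.27 and 8.38 FPKM and all cKO libraries between 13.3 and 22.8.

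The other genes around PRC2 were counted from a list of 16 that held further accessory subunits and inhibitors, H3K27 demethylases, the PR-DUB complex and H3K36 methyltransferases, of which 15 were tested in each table. In *Kdm2b* hippocampi, cortices and *Rnf2* hippocampi *Epop* was the single gene called. Of all genes, 3.89%, 4.73% and 2.86% were called higher there and 2.25%, 2.28% and 1.85% lower. In neurospheres 3 were called higher and 1 lower, beside 11.4% and 13.2% of all genes, with a median of 0.02 over the 15. *Phf1*, another Polycomb-like subunit, was 9.44 and 13.2 FPKM (0.44, SE 0.14, adjusted p = 0.0768) and *Nsd1*, an H3K36 methyltransferase, 163 and 237 (0.53, SE 0.16, adjusted p = 0.0695). The H3K27 demethylase *Kdm6b* fell from 23.1 to 16.9 FPKM (−0.43, SE 0.08, adjusted p = 0.0181). These 3 were read from entries that join them with the neighbours *Kifc5b*, *Prelid1* and *Tmem88*, so the gene behind each value is uncertain, and each of the 3 calls was lost when single libraries were left out. *Nsd2* passed the adjusted p alone (38.5 to 50.5 FPKM, 0.38, SE 0.08, adjusted p = 0.0233).

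Genes whose level ran most closely with *Ezh2* and *Ezh1* were found by Pearson r over the 18 libraries, each gene centred on its table mean, among 9622 genes. For *Ezh2* these were *Sox11* (r = 0.94), a transcription factor of immature neurons, *Mdc1* (0.93), a DNA damage checkpoint gene, *Cand2* (0.90), the nucleoporin gene *Nup188* (0.90) and the insulin receptor gene *Insr* (0.90). Over the 14 libraries without neurospheres their r was 0.86 to 0.91. For *Ezh1* they were *Lrch3* (0.95), *Ivd* (0.94), *Fbln2* (0.94), *Ikzf2* (0.94) and *Dzip1* (0.94), with r of 0.60 to 0.72 without neurospheres, so the likeness to *Ezh1* leaned more on the neurosphere libraries. These are descriptions, since libraries share their scaling and the genes were picked as the highest of all.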

How the data were processed

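RNA-seq of 18 mouse samples in 8 groups was used, with groups taken from the labels. For *Kdm2b* hippocampi and neurospheres the authors trimmed reads with cutadapt, aligned them to mm10 with STAR and estimated FPKM with Cufflinks (2.2.1, per the labels). The study's methods state a sequencing depth for RNA-seq libraries, but these files give no read counts, so the reads behind each value are not known. The cortical and *Rnf2* FPKM values were deposited with gene lengths, and the aligner and counter of these tables are not given in the sources used here. Their product with length gave whole reads for at least 99.9% of values (tolerance 0.02), 18480515 to 21905224 per cortical and 14654894 to 16334420 per *Rnf2* library. Entries with no gene name were left out, and no per-sample column was unused.

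Each table was fitted alone with limma 3.58.1 in R 4.3.3 (lmFit, eBayes with a trend) on log2(FPKM + 1), a scale that understates changes of low genes, with genes kept from a mean of 0.5 FPKM upwards. Ratios were compared with two-sided exact permutation tests over libraries. Gene positions and promoters are GRCm38. Alternatives were a pseudocount of 0.1, no filter or at least 1 FPKM, the same FPKM total, median-ratio scaling, no trend, a replicate block, adjusted p alone, summed entries, limma-voom on recovered reads, and each library left out, where a lone library was taken to vary like the other group. Same-numbered libraries correlated at −0.28 to 0.16 in their deviations, so the numbers were not taken to pair samples. The methods were tested on simulated data. The members, lists and tests were chosen with earlier results of these data known. Genes named are the 10 members, the targeted genes, called or adjusted-p genes of the wider list, markers, and the 5 genes most like *Ezh2* and *Ezh1*.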

Additional observations from a re-analysis of the deposited data

Results flagged for a closer look

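The *Kdm2b* effect differed between neurospheres and hippocampi for 5 PRC2 subunits, by the test of the difference itself in limma (neurosphere minus hippocampal effect, on the log2(FPKM + 1) scale). The difference was −0.81 for *Ezh1* (SE 0.15, adjusted p = 9.05e-04). It was 0.49 for *Phf19* (SE 0.14, adjusted p = 0.0201), 0.33 for *Rbbp4* (SE 0.10, adjusted p = 0.0291), 0.48 for *Rbbp7* (SE 0.12, adjusted p = 0.00887) and 0.46 for *Suz12* (SE 0.12, adjusted p = 0.00858). Neither *Phf19* (0.45) nor *Rbbp4* (0.32) passed without neurosphere control library 1, a fit that leaves 1 library in that group. The same held for *Phf19* without neurosphere cKO library 1 (0.45), and for *Rbbp4* without neurosphere control library 2 (0.34) or cKO library 2 (0.31). *Rbbp4* also failed in limma without hippocampal control library 1 (adjusted p = 0.0539), control library 3 (0.0738) or cKO library 3 (0.069). Both were lost with the same FPKM total, so that 3 subunits were left. *Phf19* was lost with a pseudocount of 0.1 too. In neurospheres both cKO libraries lay beyond both controls for all 5, while in hippocampi the groups overlapped for all 5. Of all genes, 66.4% did not overlap in neurospheres and 29.2% in hippocampi. The 5 were picked by the test of the difference on the same values, so their overlap adds no separate support. The share of all genes that passed the test of the difference was 25%. No group held 4 or more samples, so no single library could be tested as an outlier.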

How the results depend on the processing

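The member calls, 4 higher and 1 lower in neurospheres and 0 elsewhere, held under every alternative, within 4 to 5 higher when libraries were left out and at 6 higher and 1 lower by the adjusted p alone. Under the replicate block, whose numbers do not pair the samples, the neurosphere calls were again 4 and 1, as with the pairing crossed (added after seeing the data, also 4 and 1), but 3 higher and 1 lower passed the adjusted p, against 4 and 1 with no filter or no trend. In the 3 tissue tables the block called 0 members. *Epop* stayed called higher by the fold and unadjusted p in every table and alternative, but by the adjusted p alone not in *Rnf2* hippocampi (log2 fold change 1.38 to 1.63 in *Kdm2b* hippocampi, 1.33 to 1.72 in neurospheres, 1.46 to 1.75 in cortices and 0.71 to 1.01 in *Rnf2* hippocampi). With the same FPKM total, neurosphere *Phf1* (0.54) and *Kdm6b* (−0.32) lost their calls.

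With the same FPKM total, the members' median was 0.47 in neurospheres and −0.019 in cortices, and the count of members that differed between neurospheres and hippocampi was 3, without *Phf19* (0.57, adjusted p = 0.0731) and *Rbbp4* (0.43, adjusted p = 0.0934). *Phf19* was also lost there with a pseudocount of 0.1 (0.56, adjusted p = 0.0916). The same scaling turned the sign of values near 0, *Mtf2* in neurospheres (0.065), *Eed* (−0.011), *Jarid2* (−0.026) and *Phf19* (−0.0028) in cortices, and the cortical minus hippocampal difference of *Phf19* (−0.028). The median in *Rnf2* hippocampi was −0.19 with limma-voom. The cause was not tested.

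With single libraries left out, the median ranged from 0.071 to 0.12 in *Kdm2b* hippocampi (lowest without cKO library 2) and from −0.030 to 0.061 in cortices (without control library 1 and 2). Values that turned sign were not called. In *Kdm2b* hippocampi *Phf19* ranged from −0.015 to 0.055, *Rbbp4* from −0.038 to 0.068 and *Rbbp7* from −0.032 to 0.053, and in neurospheres *Mtf2* from −0.11 to 0.012. In cortices *Eed* ranged from −0.096 to 0.15, *Suz12* from −0.017 to 0.14, *Jarid2* from −0.044 to 0.071, *Mtf2* from −0.069 to 0.057 and *Phf19* from −0.047 to 0.095. In *Rnf2* hippocampi *Ezh1* ranged from −0.16 to 0.051, *Ezh2* from −0.31 to 0.34 and *Phf19* from −0.19 to 0.012, and the *Ezh2* to *Ezh1* ratio difference from −0.14 to 0.32. The count of members that differed between neurospheres and hippocampi ranged from 3 (without neurosphere control library 1) to 5 (left-out libraries added after seeing the data). The PRC2.1 to PRC2.2 difference in *Kdm2b* hippocampi ranged from −0.055 to 0.10.

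Over all genes, calls moved by more than 1.5 times in neurospheres with the same FPKM total (830 lower, against 1619), in cortices without control library 1 (1226 higher, against 742) and in *Rnf2* hippocampi, where they ran from 278 to 808 higher and 190 to 772 lower with single libraries left out and 437 were lower under the block, against 451 and 291. For the *Kdm2b* hippocampi and neurospheres the files give no read counts, so counting error could not be given.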
